A study of Rattus norvegicus with 27 samples.

Results

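Ubiquitin is a small protein that cells attach to other proteins to mark them for the proteasome, for sorting or for signalling, and the genes described here encode the enzymes that attach it and take it off. The members are the genes whose symbol in the array's annotation starts with Ube, Uba and a digit, Usp and a digit, Uchl or Otu. Of the 9769 genes with a probe set annotated to them alone, 65 met this rule, and each is given by its brightest probe set over all arrays. The 65 genes had 93 such probe sets, and 6 further probe sets that also list another gene were left out. The set holds 5 E1 enzymes, 21 E2 enzymes and E2 variants, 3 E3 or E4 ligases, 29 ubiquitin-specific proteases, 3 ubiquitin C-terminal hydrolases and 4 proteases of the OTU family. Some members act on relatives of ubiquitin, such as SUMO, NEDD8 and ISG15, and are included because their symbols follow the rule.

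The study measured motor neurons of the tail in male Wistar rats on 27 Affymetrix Rat 230 2.0 arrays. The Spi-21 and Spi-60 rats had the cord cut at the sacral level S2, where a piece of 1 to 2 mm was removed, and were sampled 21 days (8 arrays) or 60 days (8 arrays) later. The ShamC-21 (6 arrays) and ShamC-60 (5 arrays) rats had a laminectomy that left the dura closed, so that animals of all groups were operated on, and all received Fluorogold, a tracer taken up by motor axons, 5 to 7 days before sampling. Neurons carrying the tracer were cut from frozen sections by laser, 100 to 200 per sample by the sample labels and 50 to 200 by the design text, and their RNA was amplified in 2 rounds. The labels number the samples as biological replicates without naming animals, and the p-values therefore rest on how far these samples lie apart, which may be technical in part.

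In the ubiquitin pathway an E1 enzyme activates the modifier, an E2 enzyme carries it, and an E3 ligase directs it to a substrate. Deubiquitinases, among them the Usp, Uchl and OTU proteases, cut it off again and recycle it. Neurons depend on this system for protein turnover in long axons and at synapses, and Uchl1 is among the most abundant proteins of neurons.

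Markers of motor neurons were bright in all groups: the mean log2 signals of the 4 groups lay between 14.0 and 14.4 for the neurofilament gene Nefh, between 12.3 and 13.2 for peripherin (Prph), and between 10.7 and 11.2 for the choline transporter Slc5a7. The motor neuron transcription factor gene Isl1 was near the middle of all probe sets, between 6.06 and 6.16, and Isl2 lay between 5.72 and 6.03. Some glial genes were about as bright as Slc5a7. The group means lay between 11.3 and 12.7 for the astrocyte gene Aldoc and between 10.7 and 11.5 for Gja1. For the oligodendrocyte gene Cldn11 they lay between 10.8 and 11.6, while the astrocyte gene Aqp4 was dim, between 5.43 and 5.59. The samples thus also held signal of glial genes. Several measures of the arrays moved with the operation. The signal at the 3′ end of beta-actin exceeded that at its 5′ end by 1.97 to 2.65 on the ShamC-21 arrays and by 2.86 to 3.6 on the Spi-21 arrays. On the later day these ranges were 1.92 to 2.42 (ShamC-60) and 2.75 to 3.77 (Spi-60), so that sham and transected arrays did not overlap on either day (adjusted p = 0.012 at 21 days and 0.014 at 60 days, two-sided exact permutation tests adjusted over 18 tests). For GAPDH the same difference was 2.65 to 3.26 on the ShamC-21 arrays, 2.57 to 3.47 on Spi-21 arrays 1 to 4 and 0.985 to 1.46 on Spi-21 arrays 5 to 8, and at 60 days it was 2.31 to 2.92 (ShamC-60) and 2.85 to 3.85 (Spi-60, adjusted p = 0.0186). The mean of 10 motor neuron markers reached down to 9.19 among the ShamC-60 arrays and lay between 10.5 and 10.8 on the ShamC-21 and on the Spi-60 arrays. It was higher by 0.42 on the Spi-60 than on the ShamC-60 arrays (adjusted p = 0.0739), and 4 of the 10 markers were called higher at 60 days, namely Slc18a3 (1.48), Esrrg (1.05), Prph (0.92) and Nefh (0.38). The mean of 3 blood genes was lower by 0.54 on the Spi-60 than on the ShamC-60 arrays (adjusted p = 0.028), and the mean of 7 astrocyte genes was 9.15 on the Spi-21 and 8.67 on the ShamC-21 arrays (adjusted p = 0.0739). The means of microglial, oligodendrocyte, endothelial and interneuron genes did not pass the threshold on either day. Of their genes and those of astrocytes, some were called at 21 days: 3 of 7 astrocyte genes were higher (among them Gfap by 1.07 and Aldoc by 0.92), 2 of 9 oligodendrocyte genes (Mbp by 1.08 and Mag by 0.56) and 2 of 10 microglial genes, and of 6 interneuron genes Slc17a6 was lower by 0.90. At 60 days Aldoc, Mag and the microglial gene C1qb were called higher. The part of these measures in the results below was not tested, except as far as arrays are left out or a covariate is fitted.

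At 21 days 16 of the 65 members (24.6%) differed between transected and sham neurons at an adjusted p under 0.05, 5 of them higher and 11 lower after transection. The test was limma over 12913 probe sets with Benjamini-Hochberg adjustment over all of them. The same test called 22.6% of all 9769 genes, 11.1% higher and 11.5% lower, so the members' share was near that of all genes. At 60 days 16 members were called again, 10 higher and 6 lower, beside 20.1% of all genes, 10.7% higher and 9.44% lower. The median log2 difference of the 65 members was -0.10 at 21 days and -0.06 at 60 days, beside 0.01 and 0.02 for all genes. Members whose mean signal lay above the median of all probe sets held most of the calls, with 15 of 48 on each day, beside 1 of 17 among the dimmer members on each day. As shares these are 31.2% and 5.88%, beside 26.8% and 17.3% of all brighter and all dimmer genes at 21 days and 28.5% and 9.72% at 60 days. Each array reads the pooled RNA of many neurons, so that less RNA of a gene per neuron and fewer neurons carrying it cannot be told apart.

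The members called on both days were Uba1, Ube2m, Ube2s and Usp20, which were higher after transection, and Uba2, Uba3, Ube2g1, Ube2n, Uchl3 and Usp1, which were lower. The share of all genes called on both days was 5.15% higher and 5.46% lower, and that of the members was 4 and 6 of 65. The 4 higher genes are 80% of those called higher at 21 days and 40% of those called higher at 60 days. The 6 lower genes are 54.5% of those called lower at 21 days and 100% of those at 60 days. Of all genes, 503 were called higher on both days, out of 1085 called higher at 21 days and 1042 at 60 days. Lower on both days were 533 of all genes, out of 1122 called lower at 21 days and 922 at 60 days. In all, 22 members were called on at least 1 day and 0 in opposite directions on the 2 days. The difference had the same sign on both days in 57 of the 65 members. Calls on at least 1 day, opposite calls and equal signs were not counted over all genes, so these counts do not set the members apart.

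**Figure D1:**
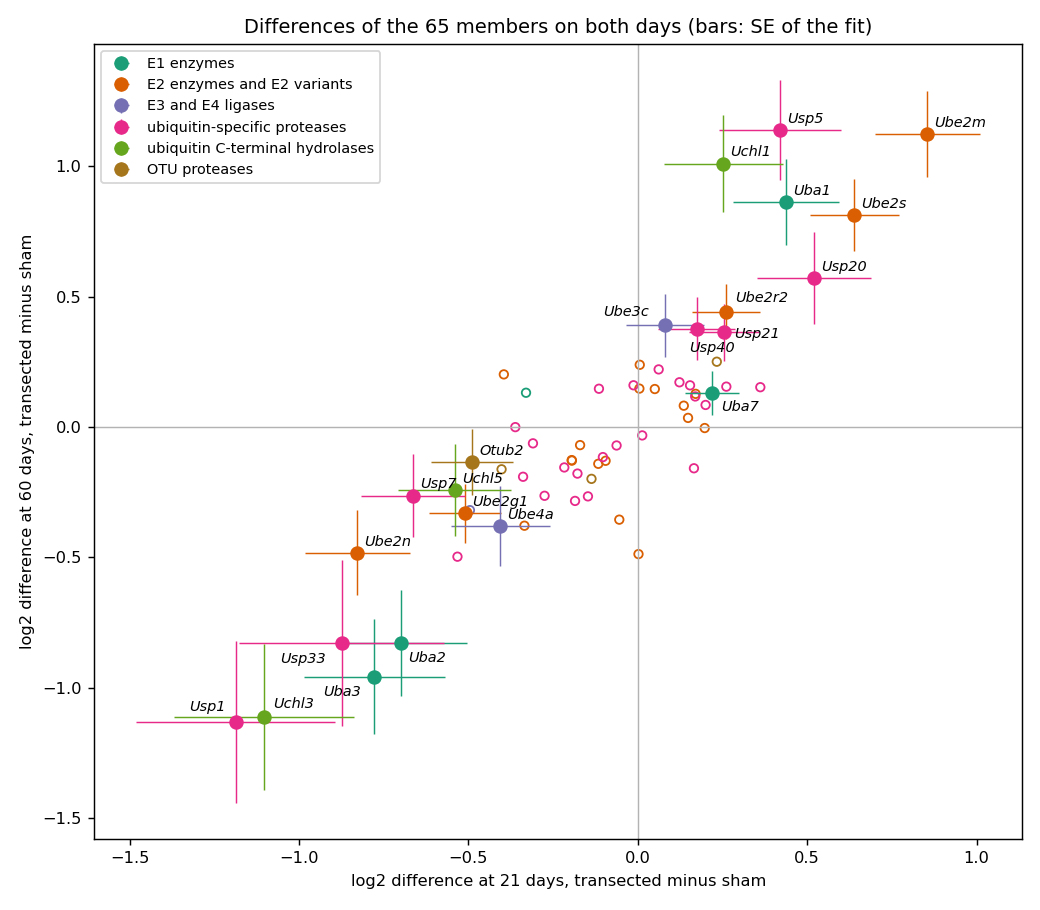
Log2 difference, transected minus sham, at 21 days (x axis) and at 60 days (y axis) for each of the 65 members, coloured by class of enzyme. Filled points with bars (SE of the limma fit) are the 22 members called on at least 1 day, open points the other 43; Ube2m, at 0.85 and 1.12, lies at the upper right, and Usp1, at -1.19 and -1.13, at the lower left.

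Among the E1 enzymes, which start each pathway, Uba1 was higher and Uba2 and Uba3 were lower after transection. Uba1, the main activating enzyme of ubiquitin, had log2 signals between 8.66 and 8.86 on the ShamC-21 arrays (median 8.76) and between 8.62 and 9.96 on the Spi-21 arrays (median 9.12). Its ShamC-60 signals were 8.64, 8.67, 8.76, 8.26 and 8.93, and its Spi-60 signals lay between 9.28 and 9.71 (median 9.52). Every Spi-60 array thus lay above every ShamC-60 array, while at 21 days 5 of 8 transected arrays lay above all sham arrays and 1 lay below them. The difference was 0.44 (SE 0.16, adjusted p = 0.0446) at 21 days and 0.86 (SE 0.17, adjusted p = 0.000709), or 1.82-fold, at 60 days. The 21-day call was lost without any of 12 of the 27 arrays (adjusted p up to 0.0964), and also when only the 21-day groups were fitted (adjusted p = 0.102) or with a glial marker covariate (adjusted p = 0.0867). The 4 high Spi-21 values, 9.96, 9.6, 9.57 and 9.35, came from arrays 1 to 4, whose GAPDH difference lay near that of the ShamC-21 arrays, while that of arrays 5 to 8 was smaller. With these 4 alone the difference at 21 days was 0.86 (adjusted p = 3.3e-05), and with arrays 5 to 8 alone it was 0.01 (adjusted p = 0.954). No label divides the Spi-21 arrays in this way, and the division was chosen with earlier results of these data known. Here and below, p-values from either part therefore describe these arrays and are not independent support.

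Uba3, the catalytic subunit of the enzyme that activates NEDD8, ranged from 8.77 to 9.35 (median 9.14) on the ShamC-21 arrays and from 7.3 to 8.72 (median 8.45) on the Spi-21 arrays, with no overlap. The ShamC-60 arrays read 9.7, 8.94, 9.26, 9.52 and 8.85, and the Spi-60 arrays lay between 7.64 and 9.1 (median 8.38), where 7 of 8 were below all sham arrays. The difference was -0.78 (SE 0.21, adjusted p = 0.00919) at 21 days and -0.96 (SE 0.22, adjusted p = 0.00333) at 60 days. Uba2, the catalytic subunit of the SUMO-activating enzyme, ranged from 8.44 to 9.32 (ShamC-21, median 9.01) and from 7.64 to 8.62 (Spi-21, median 8.28). Its ShamC-60 values were 9.28, 8.63, 8.96, 10.0 and 8.82, of which array 4 was the highest, and its Spi-60 values ranged from 7.79 to 8.79 (median 8.39). All 8 transected arrays lay below the sham mean on each day. The difference was -0.70 (SE 0.19, adjusted p = 0.0114) at 21 days and -0.83 (SE 0.20, adjusted p = 0.00578) at 60 days. Without ShamC-60 arrays 1 and 4 the differences at 60 days were -0.49 for Uba2 (adjusted p = 0.164) and -0.72 for Uba3 (adjusted p = 0.0895). With Spi-21 arrays 1 to 4 alone the 21-day differences were -0.83 for Uba2 (adjusted p = 0.0119) and -0.93 for Uba3 (adjusted p = 0.0107). With arrays 5 to 8 alone they were -0.57 for Uba2 (adjusted p = 0.109) and -0.63 for Uba3 (adjusted p = 0.067), neither called.

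The partner subunits of these E1 enzymes were looked up after their values were seen. Nae1, which pairs with Uba3, differed by -0.27 at 21 days (adjusted p = 0.245) and by -0.61 at 60 days (adjusted p = 0.0176). Sae1, which pairs with Uba2, differed by 0.02 at 21 days (adjusted p = 0.901) and by 0.31 at 60 days (adjusted p = 0.0458), where Uba2 was lower. Uba7, the E1 of the interferon-induced modifier ISG15, was higher by 0.22 at 21 days (SE 0.08, adjusted p = 0.0468), a 1.16-fold difference whose call was lost when any of 17 of the 27 arrays was left out (adjusted p up to 0.128). Uba6, a further E1 of ubiquitin, differed by -0.33 (95% interval -0.85 to 0.19) and 0.13 (-0.42 to 0.68) and was not called.

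The promoters of Uba1, Uba2 and Uba3 are shown because the 3 genes are the E1 enzymes called on both days. Each line gives the 250 bases before the start in RefSeq (GRCr8), read 5′ to 3′ in the direction of the gene, with CG dinucleotides in capitals. Uba1 is at chrX:4080690-4080939, Uba2 at chr1:95939865-95940114 and Uba3 at chr4:131367269-131367518, all on the minus strand. Uba1 has 7 CG dinucleotides in this window, Uba2 has 10 and Uba3 has 18.
Uba1: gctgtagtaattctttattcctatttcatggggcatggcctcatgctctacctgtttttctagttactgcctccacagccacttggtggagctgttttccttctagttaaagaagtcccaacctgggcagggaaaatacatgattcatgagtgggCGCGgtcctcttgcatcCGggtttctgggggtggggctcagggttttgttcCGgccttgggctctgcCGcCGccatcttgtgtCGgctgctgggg
Uba2: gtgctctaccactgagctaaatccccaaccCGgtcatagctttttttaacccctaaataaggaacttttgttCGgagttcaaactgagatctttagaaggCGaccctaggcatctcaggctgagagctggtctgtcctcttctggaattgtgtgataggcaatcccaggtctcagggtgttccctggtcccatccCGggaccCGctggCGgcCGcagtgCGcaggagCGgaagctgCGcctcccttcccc
Uba3: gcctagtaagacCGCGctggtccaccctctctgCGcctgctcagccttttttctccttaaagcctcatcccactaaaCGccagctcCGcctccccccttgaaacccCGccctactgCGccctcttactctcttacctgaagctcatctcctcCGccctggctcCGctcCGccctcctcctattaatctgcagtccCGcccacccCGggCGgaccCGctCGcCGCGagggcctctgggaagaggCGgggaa

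Of the 21 E2 enzymes, which carry the activated modifier, Ube2m and Ube2s were higher and Ube2g1 and Ube2n lower on both days, and Ube2r2 was higher at 60 days. The other 16 were called on neither day. The called share of the E2 enzymes was 19.0% at 21 days and 23.8% at 60 days, beside 22.6% and 20.1% of all genes. Ube2m, the E2 that passes NEDD8 to cullin ligases, had ShamC-21 signals of 5.94 to 6.69 (median 6.14) and Spi-21 signals of 6.43 to 7.76 (median 7.02). The ShamC-60 values were 5.86, 6.05, 6.33, 6.13 and 6.12, and the Spi-60 values were 6.8 to 7.51 (median 7.29), so the groups were separate at 60 days, and at 21 days 7 of 8 transected arrays lay above all sham arrays. The difference was 0.85 (SE 0.16, adjusted p = 0.000502), or 1.81-fold, at 21 days and 1.12 (SE 0.16, adjusted p = 3.99e-05), or 2.18-fold, at 60 days. Its call held without any 1 array on both days, and with Spi-21 arrays 1 to 4 alone (1.19) and 5 to 8 alone (0.52, adjusted p = 0.0237). Thus the NEDD8 pathway held a lower E1 (Uba3) and a higher E2 (Ube2m), while Ube2f, its other E2, differed by 0.01 (95% interval -0.29 to 0.30) at 21 days and by 0.24 (-0.07 to 0.55) at 60 days.

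Ube2s, which lengthens ubiquitin chains on substrates of the anaphase-promoting complex, ranged from 5.91 to 6.29 (ShamC-21, median 6.23) and from 6.18 to 7.31 (Spi-21, median 6.8). Its ShamC-60 values were 6.1, 6.06, 6.4, 6.01 and 6.42, and its Spi-60 values ranged from 6.67 to 7.35 (median 7.04), above every sham array. The difference was 0.64 (SE 0.13, adjusted p = 0.0014) at 21 days and 0.81 (SE 0.14, adjusted p = 0.00023) at 60 days. Ube2s was the 1 member whose call was kept on both days when the beta-actin end difference was fitted as a covariate, at 0.87 (adjusted p = 0.0277) and 1.07 (adjusted p = 0.0255). Because that measure separates sham from transected arrays on both days, its effect and that of the operation cannot be told apart in such a fit. Ube2r2, a relative of Cdc34 that works with SCF ligases, was higher by 0.44 at 60 days (SE 0.11, adjusted p = 0.00472) and differed by 0.26 at 21 days (adjusted p = 0.0604).

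Ube2n, the E2 that builds ubiquitin chains for signalling and DNA repair rather than for the proteasome, ranged from 8.47 to 9.02 (median 8.78) on the ShamC-21 arrays. The Spi-21 arrays lay between 7.26 and 8.32 (median 8.06), all below the sham arrays. Its ShamC-60 values were 8.41, 8.66, 8.6, 8.08 and 8.78 and its Spi-60 values ranged from 7.61 to 8.55 (median 7.97), with overlap. The difference was -0.83 (SE 0.16, adjusted p = 0.000636) at 21 days and -0.48 (SE 0.16, adjusted p = 0.038) at 60 days. The 60-day call was lost without any of 9 arrays (adjusted p up to 0.0913), and the dimmer probe set of Ube2n differed by 0.05 at 21 days and by 0.13 at 60 days, neither past the threshold. Ube2g1, an E2 that extends ubiquitin chains, was lower by 0.51 at 21 days (SE 0.11, adjusted p = 0.00166) and by 0.33 at 60 days (SE 0.11, adjusted p = 0.0389), the latter lost without any of 9 arrays (adjusted p up to 0.145). The 60-day call was also lost with quantile normalization (adjusted p = 0.132) and without ShamC-60 arrays 1 and 4 (adjusted p = 0.279), among others. The dimmer probe set of Ube2g1 differed by -0.03 at 21 days (adjusted p = 0.894) and by -0.04 at 60 days (adjusted p = 0.86).

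**Figure D2:**
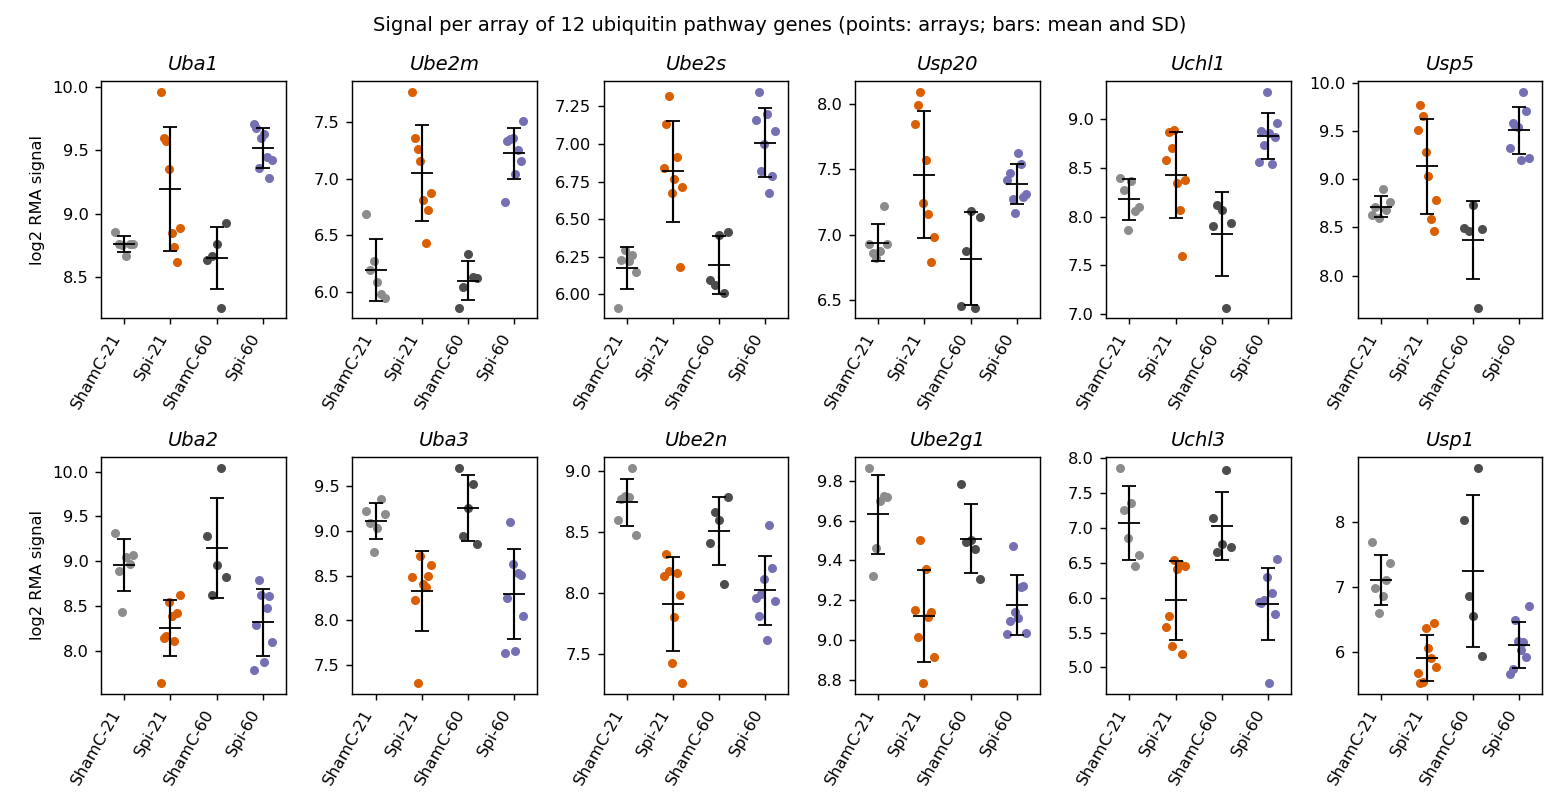
Log2 RMA signal (y axis, scaled to each gene) of 12 members on every array of the 4 groups (x axis): points are arrays, bars the mean and SD. The upper row shows 6 genes called higher on at least 1 day and the lower row 6 called lower on both days; at 60 days all Spi-60 points of Uba1, Ube2m, Ube2s, Uchl1 and Usp5 lie above all ShamC-60 points.

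The 3 members named as ligases were called at most on 1 day. Ube3c, a ligase that works at the proteasome, was higher by 0.39 at 60 days (SE 0.12, adjusted p = 0.0236). Its ShamC-60 values were 9.4, 9.51, 9.38, 8.77 and 9.46, of which array 4 stood lowest, and the Spi-60 values ranged from 9.46 to 9.89 (median 9.7). Without ShamC-60 array 4 the difference was 0.26 and was not called (adjusted p = 0.132). Ube3a, the ligase lost in Angelman syndrome, differed by -0.50 at 21 days (SE 0.19, adjusted p = 0.0572) and by -0.32 at 60 days (adjusted p = 0.265). The other probe set of Ube3a was called lower at 21 days (-0.61, adjusted p = 0.0315), as was the mean of both (-0.55, adjusted p = 0.015). The brightest was called with array weights (adjusted p = 0.0223) and when only the 21-day groups were fitted (adjusted p = 0.0402). Ube4a, an E4 enzyme that lengthens chains already begun, was lower by 0.41 at 21 days (SE 0.15, adjusted p = 0.045) by its brightest probe set, but another of its 4 probe sets was called higher on both days. The 21-day call of the brightest was lost without any of 10 arrays (adjusted p up to 0.108), with arrays 5 to 8 alone (-0.12, adjusted p = 0.58), with quantile normalization (adjusted p = 0.0988), when only the 21-day groups were fitted (adjusted p = 0.0934) and with a glial marker covariate (adjusted p = 0.1). At 60 days the brightest differed by -0.38 (adjusted p = 0.0818). It was called there with array weights (adjusted p = 0.00702) and when only the 60-day groups were fitted (adjusted p = 0.0346), among others.

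The 3 ubiquitin C-terminal hydrolases, which free ubiquitin from small adducts, moved in different directions. Uchl1, the neuronal hydrolase, had ShamC-60 signals of 7.9, 8.12, 8.07, 7.07 and 7.94, and its Spi-60 signals ranged from 8.54 to 9.28 (median 8.83), above every sham array. The difference at 60 days was 1.01 (SE 0.19, adjusted p = 0.000478), or 2.01-fold, and without ShamC-60 array 4, the lowest, it was 0.82 (adjusted p = 0.00313). The motor neuron markers named above were higher on the Spi-60 arrays too, and their part in the differences of Uchl1, Uba1 and Usp5 was not tested. At 21 days Uchl1 ranged from 7.86 to 8.4 (ShamC-21, median 8.19) and from 7.59 to 8.89 (Spi-21, median 8.48), a difference of 0.25 (95% interval -0.11 to 0.61) that was not called (adjusted p = 0.31). With Spi-21 arrays 1 to 4 alone the 21-day difference was 0.59 (adjusted p = 0.0118), and with arrays 5 to 8 alone it was -0.08 (adjusted p = 0.813).

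Uchl3, a hydrolase that also processes NEDD8, was lower after transection on both days. It ranged from 6.45 to 7.86 (ShamC-21, median 7.06) and from 5.19 to 6.54 (Spi-21, median 6.07), where 5 of 8 transected arrays lay below all sham arrays. Its ShamC-60 values were 7.14, 6.65, 6.77, 7.83 and 6.72, and its Spi-60 values ranged from 4.77 to 6.55 (median 5.95), below every sham array. The difference was -1.10 (SE 0.27, adjusted p = 0.00467) at 21 days and -1.11 (SE 0.28, adjusted p = 0.00689) at 60 days, each more than 2-fold. Without ShamC-60 arrays 1 and 4 the 60-day difference was -0.80 (adjusted p = 0.134). At 21 days it was -1.27 with Spi-21 arrays 1 to 4 alone (adjusted p = 0.0036). With arrays 5 to 8 alone it was -0.93 and was not called (adjusted p = 0.0602). Uchl5, a hydrolase bound to the proteasome, was lower by 0.54 at 21 days (SE 0.17, adjusted p = 0.0217) and was not called at 60 days (-0.24, adjusted p = 0.349). Without ShamC-21 array 1 its 21-day difference was -0.50 (adjusted p = 0.0547). With Spi-21 arrays 1 to 4 alone that difference was -0.59 (adjusted p = 0.00448), and with arrays 5 to 8 alone it was -0.49 (adjusted p = 0.13).

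The promoters of Uchl1 and Uchl3 are shown because these related hydrolases were called in opposite directions at 60 days. The windows, drawn as above with CG dinucleotides in capitals, are chr14:41849418-41849667 on the minus strand for Uchl1 (11 CG dinucleotides) and chr15:84899828-84900077 on the plus strand for Uchl3 (17 CG dinucleotides).
Uchl1: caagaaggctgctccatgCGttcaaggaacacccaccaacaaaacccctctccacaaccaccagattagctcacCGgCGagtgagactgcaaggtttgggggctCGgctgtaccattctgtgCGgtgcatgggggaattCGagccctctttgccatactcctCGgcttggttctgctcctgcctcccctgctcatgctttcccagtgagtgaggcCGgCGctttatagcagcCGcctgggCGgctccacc
Uchl3: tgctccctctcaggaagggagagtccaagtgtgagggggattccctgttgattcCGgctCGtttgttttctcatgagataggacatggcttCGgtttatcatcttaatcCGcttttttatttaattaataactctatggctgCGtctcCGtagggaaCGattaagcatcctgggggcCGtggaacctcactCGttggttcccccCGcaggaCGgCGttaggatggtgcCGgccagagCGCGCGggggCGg

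Of the 29 ubiquitin-specific proteases, 1 was called higher and 3 lower at 21 days, and 4 were called higher and 1 lower at 60 days. As shares these are 13.8% at 21 days and 17.2% at 60 days, beside 22.6% and 20.1% of all genes. Usp5, which takes apart free ubiquitin chains, had ShamC-60 signals of 8.5, 8.46, 8.73, 7.67 and 8.48 and Spi-60 signals of 9.2 to 9.91 (median 9.55), with no overlap. The difference at 60 days was 1.14 (SE 0.19, adjusted p = 0.000182), or 2.2-fold, and without ShamC-60 array 4, the lowest, it was 0.96 (adjusted p = 0.00125). At 21 days its signals were 8.6 to 8.9 (ShamC-21, median 8.7) and 8.46 to 9.77 (Spi-21, median 9.15), a difference of 0.42 that was not called (adjusted p = 0.0923). The Spi-21 values again fell by array: 9.51, 9.77, 9.65 and 9.28 on arrays 1 to 4, and 9.03, 8.59, 8.46 and 8.78 on arrays 5 to 8. With arrays 1 to 4 alone the difference was 0.84 (adjusted p = 0.000655), and with arrays 5 to 8 alone it was 0.00 (adjusted p = 1.0).

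Usp20, a protease first described through its binding to the VHL tumour suppressor, was higher by 0.52 at 21 days (SE 0.17, adjusted p = 0.0269) and by 0.57 at 60 days (SE 0.18, adjusted p = 0.0245). At 21 days the call was lost without any of 6 arrays (adjusted p up to 0.0597), and with Spi-21 arrays 5 to 8 alone the difference was 0.19 (adjusted p = 0.457). At 60 days it was lost without ShamC-60 array 1 (0.48, adjusted p = 0.0903) or array 4 (0.48, adjusted p = 0.0949). Usp21 was higher by 0.36 (adjusted p = 0.0208) and Usp40 by 0.38 (adjusted p = 0.0288) at 60 days. The Usp21 call was lost without ShamC-60 array 1 (adjusted p = 0.0873) and the Usp40 call without any of 4 arrays (adjusted p up to 0.074).

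Usp1, which removes ubiquitin from the DNA repair proteins PCNA and FANCD2, was lower on both days. It ranged from 6.6 to 7.68 (ShamC-21, median 7.04) and from 5.52 to 6.45 (Spi-21, median 5.84), with no overlap, a difference of -1.19 (SE 0.29, adjusted p = 0.00549) or 2.28-fold. At 60 days the sham arrays spread widely, with 8.03, 6.85, 6.56, 8.83 and 5.95, and the Spi-60 arrays ranged from 5.66 to 6.71 (median 6.09). The 60-day difference was -1.13 (SE 0.31, adjusted p = 0.0118), and it was lost without ShamC-60 array 1 (-0.94, adjusted p = 0.0549) or array 4 (-0.73, adjusted p = 0.068). Without both it was -0.34 (adjusted p = 0.437). The 21-day difference was -1.32 with Spi-21 arrays 1 to 4 alone (adjusted p = 0.0101). With arrays 5 to 8 alone it was -1.05 and was not called (adjusted p = 0.0664).

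Usp33, the closest relative of Usp20, was lower by 0.87 at 21 days (SE 0.30, adjusted p = 0.0375), when Usp20 was higher, and at 60 days was not called (-0.83, adjusted p = 0.0672). The 60-day difference of Usp33 was called with a replicate block (-1.08, adjusted p = 0.0173) and when only the 60-day groups were fitted (adjusted p = 0.0365), among others. Without ShamC-60 arrays 1 and 4 it was -0.37 (adjusted p = 0.595). Its 21-day call was lost without any of 7 arrays (adjusted p up to 0.0897), with quantile normalization (adjusted p = 0.0532), when only the 21-day groups were fitted (adjusted p = 0.062) and with a glial marker covariate (adjusted p = 0.0651). The Spi-21 values of Usp33 were 7.1, 8.0, 6.8 and 8.27 on arrays 1 to 4 and 8.47, 8.75, 9.11 and 9.04 on arrays 5 to 8, beside 8.72 to 9.48 on the ShamC-21 arrays. With arrays 1 to 4 alone the difference was -1.52 (adjusted p = 0.000738), and with arrays 5 to 8 alone it was -0.23 (adjusted p = 0.618). Usp7, which stabilises Mdm2 and p53, ranged from 9.19 to 9.31 (ShamC-21, median 9.27) and from 8.24 to 8.88 (Spi-21, median 8.57), with no overlap. It was lower by 0.66 at 21 days (SE 0.15, adjusted p = 0.00331), and so with arrays 5 to 8 alone (-0.86, adjusted p = 0.00417) but not with arrays 1 to 4 alone (-0.46, adjusted p = 0.0514). Usp7 differed by -0.26 at 60 days (adjusted p = 0.255). Usp9x, a large X-linked protease, differed by 0.15 (95% interval -0.09 to 0.40) and 0.16 (-0.10 to 0.42) and was not called.

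The promoter of Usp5 is shown because it alone among the promoters of members called on at least 1 day holds the NRF1 motif, at its 250 bases chr4:159320957-159321206 on the minus strand. The motif begins 56 bases before the start, and CG dinucleotides are in capitals.
Usp5: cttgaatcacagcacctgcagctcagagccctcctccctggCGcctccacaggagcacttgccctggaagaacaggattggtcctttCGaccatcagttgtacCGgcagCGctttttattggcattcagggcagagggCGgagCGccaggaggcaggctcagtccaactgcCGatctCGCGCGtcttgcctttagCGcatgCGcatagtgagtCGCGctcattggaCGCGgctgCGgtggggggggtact

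RefSeq promoter windows from 250 bases before to 50 after the start were found for 54 of the 65 members. Their median GC content was 62.3%, beside 51.7% for all 33469 promoters, and their median number of CG dinucleotides was 24, beside 7. The ETS motif CCGGAAG, searched on both strands, was in 13 of the 54 (24.1%) and in 8.75% of all promoters. The NRF1 motif was in 2 (3.7%) and in 0.852% of all, and the CRE motif TGACGTCA in 1 (1.85%) and in 1.83% of all. Of the 9 windows of members called higher, 0 held the ETS motif and 1 held the NRF1 motif, and of the 9 windows of members called lower, 2 (those of Uba2 and Usp33) held the ETS motif. A match in these windows is a description of the letters only. All promoters here are those of RefSeq, not only those of the measured genes. The members' windows are richer in GC and CG, and the part of this in the motif shares was not tested.

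Among the 4 OTU proteases, Otub2 was called, and only at 21 days. It ranged from 6.02 to 6.64 (ShamC-21, median 6.31) and from 5.43 to 6.27 (Spi-21, median 5.7), and 6 of 8 transected arrays lay below all sham arrays. The difference was -0.49 (SE 0.12, adjusted p = 0.00551) at 21 days and -0.14 (95% interval -0.40 to 0.13) at 60 days. The 21-day call was kept with Spi-21 arrays 1 to 4 alone (-0.42, adjusted p = 0.0179) and with arrays 5 to 8 alone (-0.56, adjusted p = 0.0132).

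The groups did not overlap at all in few members. At 21 days all transected arrays lay below all sham arrays for Uba3, Ube2n, Usp1 and Usp7, 6.15% of the members beside 2.3% of all genes, and above them for 0 members beside 3.17% of all genes. At 60 days all transected arrays lay above all sham arrays for Uba1, Ube2m, Ube2s, Uchl1, Usp40 and Usp5, 9.23% of the members beside 5.11% of all genes. They lay below for Uchl3, 1.54% of the members beside 3.6% of all genes. The separation of Usp40 was narrow, with a lowest Spi-60 value of 5.50 and a highest ShamC-60 value of 5.48. Both values lie below the medians of the arrays.

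The arrays hold several probe sets for 21 members, and these often disagreed. The brightest probe set was called in 6 of the 21 genes at 21 days and in 3 at 60 days, and in 0 of these cases did another probe set of the gene get the same call. In 4 other genes at 21 days (Uba6, Ube3a, Usp24 and Usp8) and 3 at 60 days (Uba6, Ube4a and Usp24) the brightest was not called but another was. The signs of the difference were mixed within 8 genes at 21 days and 9 at 60 days. For Usp7 at 21 days the brightest of 4 probe sets was called lower (-0.66) and the dimmest higher (0.49), and for Ube4a at 21 days 1 of 4 was called lower (-0.41) and 1 higher (0.34). For Uba6 the brightest probe set was not called, while of its 2 others 1 was called lower at 21 days (-0.76) and the other at 60 days (-0.53). The 2 probe sets of Usp1 differed by -1.19 and -0.38 at 21 days, the latter not called. Of the 10 members called on both days, 7 have 1 probe set, so that no second reading exists for Uba1, Uba2, Uba3, Ube2m, Ube2s, Uchl3 and Usp20. Which transcript ends the probe sets read was not tested here.

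**Figure D3:**
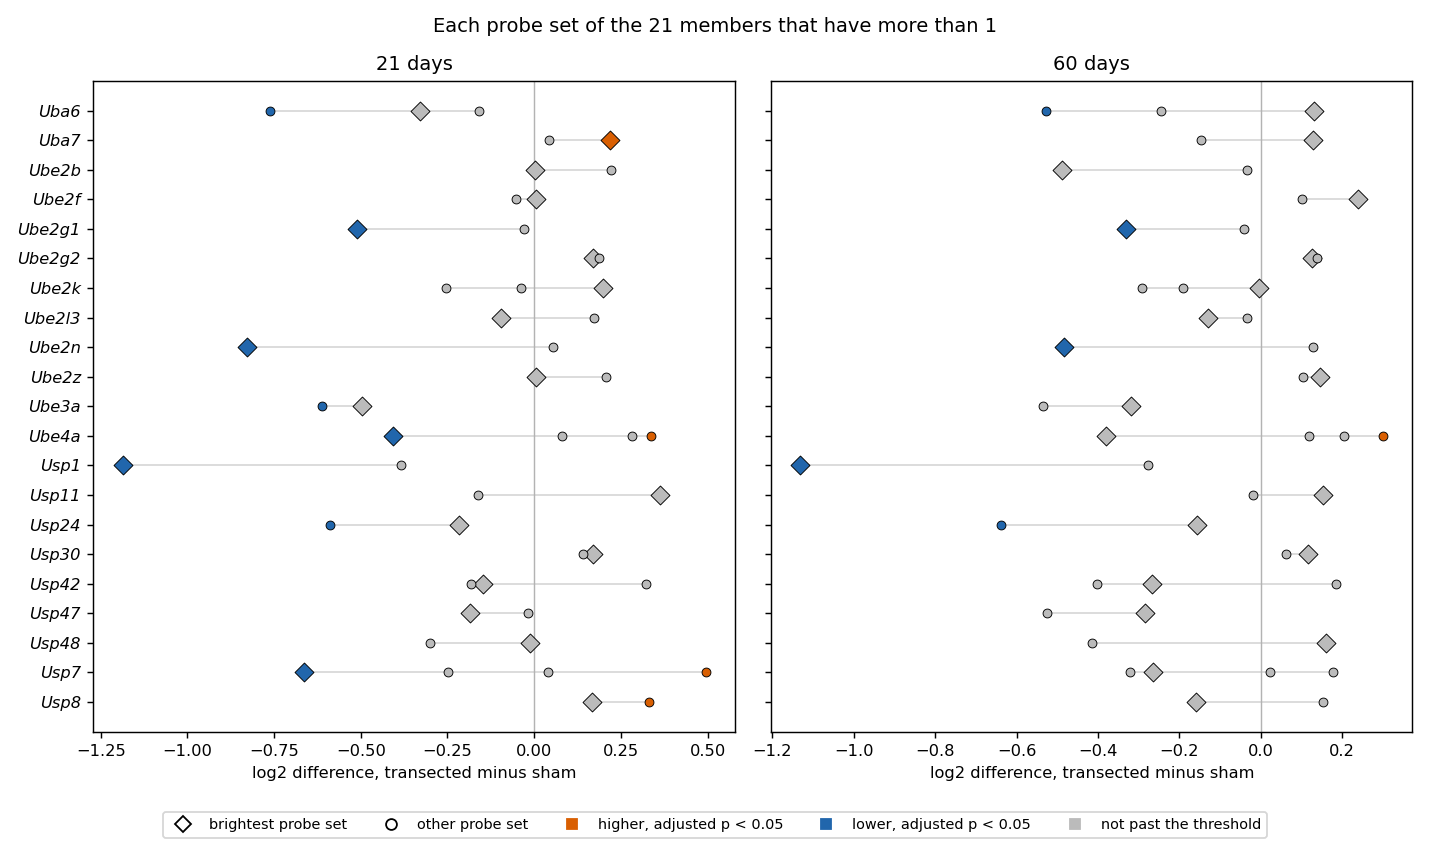
Log2 difference, transected minus sham (x axis), of every probe set of the 21 members with more than 1 (y axis), at 21 days (left) and 60 days (right). Diamonds are the brightest probe sets, circles the others, and colour marks those called higher or lower; at 21 days Ube4a and Usp7 each hold a probe set called lower and another called higher.

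The arrays of the 21-day transected group divided the calls of the members, by a division that no label gives. With Spi-21 arrays 1 to 4 alone 22 members (33.8%) were called at 21 days, beside 30.7% of all genes in that fit, 8 higher and 14 lower, of which 14 were among the 16 called with all arrays. With arrays 5 to 8 alone 6 (9.23%) were called, beside 10.3% of all genes: Ube2m and Ube2s higher, and Otub2, Ube2g1, Ube2n and Usp7 lower. At 60 days, without ShamC-60 arrays 1 and 4, 8 members (12.3%) were called, beside 6.76% of all genes. Of these Uba1, Ube2m, Ube2r2, Ube2s, Uchl1, Usp5 and Usp11 were higher and Ube2n was lower. Usp11 was not called with all arrays (0.15, adjusted p = 0.722) and was 0.70 without these arrays (adjusted p = 0.0329).

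**Figure D4:**
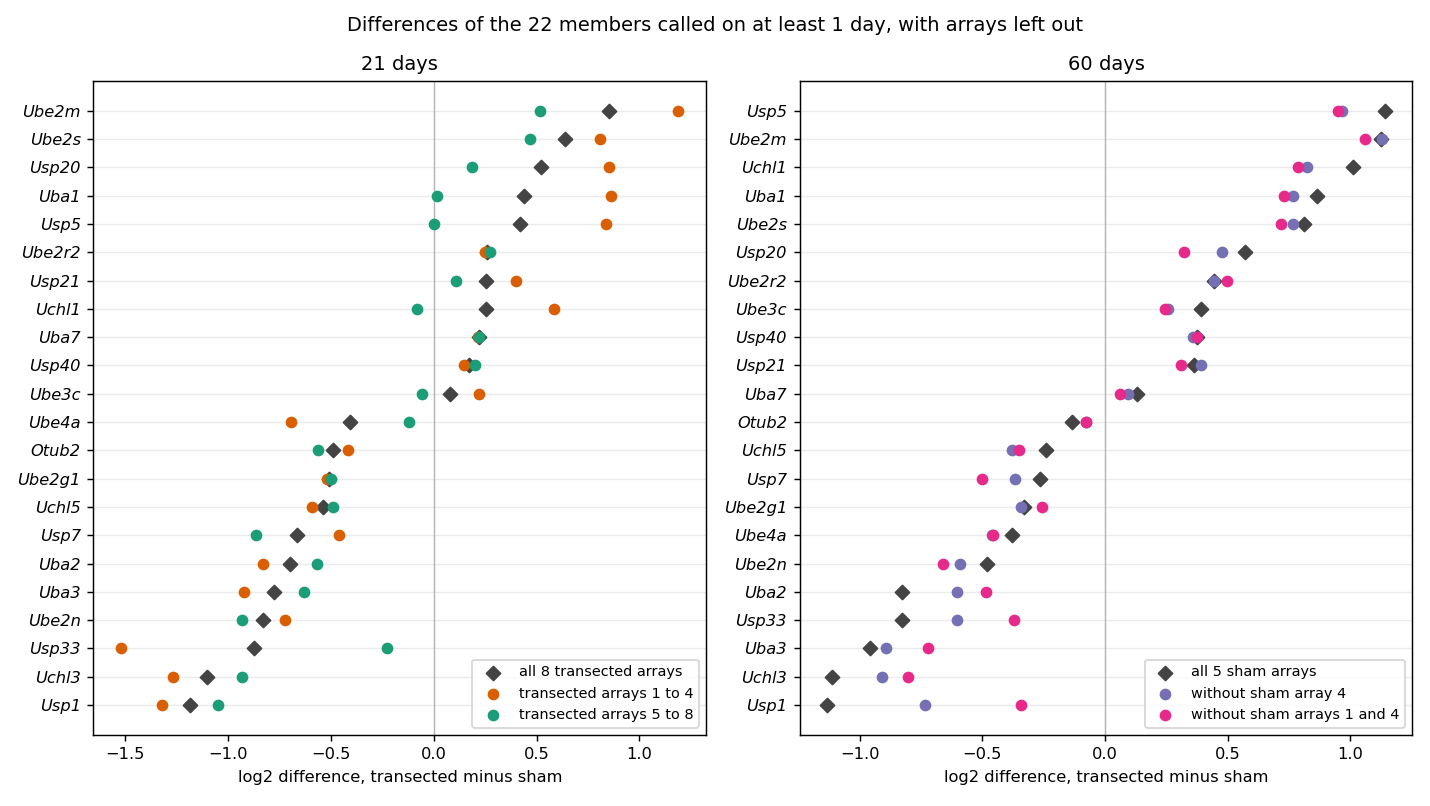
Log2 difference, transected minus sham (x axis), of the 22 members called on at least 1 day (y axis), with all arrays (diamonds) and with arrays left out (circles), at 21 days (left) and 60 days (right). At 21 days Uba1 is at 0.86 with transected arrays 1 to 4 and at 0.01 with arrays 5 to 8. Ube2g1, by its brightest probe set, is at -0.52 and -0.50.

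No member passed the threshold for a change between the days. The difference between the 60-day and the 21-day effect was called in 0 members by limma, beside 0.0% of all genes called. At an unadjusted p under 0.05 there were 3 members. The share of all genes at an unadjusted p under 0.05 was not counted, here or for the comparisons below. The smallest p-values were those of Uchl1, whose effect was larger at 60 days by 0.76 (SE 0.26, adjusted p = 0.627), Usp5 (0.72, SE 0.26, adjusted p = 0.647) and Ube2q1 (0.60, SE 0.24, adjusted p = 0.653). With Spi-21 arrays 5 to 8 alone this difference was called in 3 members, beside 1.36% of all genes in that fit, namely Uba1 (0.85, adjusted p = 0.00472), Uchl1 (1.09, adjusted p = 0.0271) and Usp5 (1.14, adjusted p = 0.00932), and with arrays 1 to 4 alone in 0. The Spi-60 arrays against the Spi-21 arrays gave 0 called members, beside 0.0921% of all genes called. At an unadjusted p under 0.05 there were 10 members, for which no share of all genes is at hand. The smallest p-values there were those of Otub2 (0.37, adjusted p = 0.139), Ube2q1 (0.45, adjusted p = 0.181) and Usp54 (0.50, adjusted p = 0.19). With Spi-21 arrays 5 to 8 alone 8 members (12.3%) were called, beside 5.17% of all genes in that fit, namely Uba1, Ube2m, Uchl1 and Usp5 higher and Ube4a, Usp15, Usp47 and Usp8 lower at 60 days. The sham groups gave 0 called members between the days, beside 0.0% of all genes called, and 1 member at an unadjusted p under 0.05. In the sham groups the smallest p-values were those of Ube2e2 (0.36), Ube3c (-0.25) and Ube2z (-0.24), each at an adjusted p of 0.999.

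Of the 43 members called on neither day, 42 differed by less than 0.5 on the log2 scale on both days. Several called members differed by less than 0.5 too, among them Uba7 (0.22 at 21 days) and Usp21 (0.36 at 60 days). The share of all genes under 0.5 was not counted. A p that misses the threshold does not show that such a gene was the same in both groups. Usp12 was the exception, at -0.53 (95% interval -0.97 to -0.10, adjusted p = 0.0707) and -0.50 (-0.96 to -0.04, adjusted p = 0.119), and was named after its values were seen.

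Other genes of the pathway were counted from lists, and the counts stand beside 11.1% of all genes called higher and 11.5% lower at 21 days, and 10.7% and 9.44% at 60 days. Unlike the members, the genes of these lists were not checked with arrays left out, covariates or other probe sets. This also holds for Nae1 and Sae1 above. Of 39 measured ubiquitin ligases, 2 were higher and 9 lower at 21 days and 5 higher and 5 lower at 60 days. Cul4a, a scaffold of cullin ligases and so a substrate of NEDD8, was lower by 0.99 (adjusted p = 0.00507) and 1.19 (adjusted p = 0.00205), and the ligase Wwp1 by 0.83 and 0.68. Rnf10 was higher by 0.47 and 0.57, Fbxo32, a ligase subunit of muscle wasting, by 0.42 at 21 days, and at 60 days Trim3 by 0.92 and the chaperone-bound ligase Stub1 by 0.71. The median difference of the 39 ligases was -0.03 at 21 days and -0.01 at 60 days.

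Of 10 measured deubiquitinases outside the rule, 1 was higher and 1 lower on each day. Psmd14, the deubiquitinase of the proteasome lid, was lower by 0.97 at 21 days (SE 0.16, adjusted p = 0.000195) and 1.01 at 60 days (SE 0.17, adjusted p = 0.000198), with no overlap of the groups on either day. Josd2 was higher by 0.45 and 0.62. Of 19 measured genes for other modifiers and their enzymes, 1 was higher and 4 lower at 21 days and 4 higher and 5 lower at 60 days. The SUMO protease Senp7 was lower by 0.85 and 1.17 and the autophagy E2 enzyme Atg3 by 0.75 and 0.65, while the SUMO ligase Pias4 was higher by 0.61 and 0.59 and Sumo3, a form of SUMO, by 0.83 at 60 days. Of 6 measured ubiquitin receptors and partners of the segregase, 2 were higher and 1 lower on each day. Vcp, the segregase that pulls ubiquitylated proteins apart, was higher by 0.59 (adjusted p = 0.0136) and 0.65 (adjusted p = 0.0117) and its cofactor Nsfl1c by 0.79 and 0.82, and the shuttle receptor Rad23b was lower by 0.56 and 0.32.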

How the data were processed

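The authors deposited log2 signals per probe set, made with RMA, per the submitters' processing notes. For the RMA version, and for how probe sets were selected, nothing is stated in the sources used here. There were 12919 probe sets on 27 arrays, and after 6 control probe sets were set aside 12913 were tested. Values ran from 0.0 to 14.6, and array medians from 6.31 to 6.41. Their number, not a depth, limits the precision of the arrays.

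Genes were named from the platform annotation, and all 65 members matched RefSeq (GRCr8) by gene ID. A gene symbol of its own was listed for 11880 probe sets, while 320 listed several genes and 713 listed no gene. Group differences come from limma 3.58.1 in R 4.3.3, by lmFit and eBayes on 4 group means over 27 arrays, with two-sided p-values, Benjamini-Hochberg adjustment over 12913 probe sets and a threshold of 0.05. The code was tested on simulated data. The named members were the called ones, the 3 of smallest p where none was called, and a fixed set of pathway genes; of the lists, up to 2 genes a direction were named. The members, lists and tests were chosen with earlier results of these data known. Same-numbered arrays were not paired by the labels, and the correlations of their deviations lay between -0.309 and 0.331. Alternatives were other scalings, probe set choices, covariates, array weights, a replicate block and arrays left out.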

Additional observations from a re-analysis of the deposited data

Results flagged for a closer look

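In the 29 named members, 116 groups of arrays were searched for a value far from the rest of its group (Dixon's criterion at the 95% level), and 10 values were found; chance gives about 1 in 20 groups. The ShamC-60 array 4 held 4 of them: it was lowest for Ube3c (8.77, next array 9.38), Uchl1 (7.07, next 7.9) and Usp5 (7.67, next 8.46), and highest for Ube2e2 (8.05, next 7.39). Of the ShamC-21 group, array 5 was lowest for Uba7 (6.28, next 6.48) and highest for Usp20 (7.21, next 6.93). Of the Spi-21 group, array 3 was lowest for Uba3 (7.3, next 8.23), array 7 for Ube2e2 (6.25, next 6.95) and array 8 for Usp54 (6.37, next 6.84). The Spi-60 array 5 was lowest for Uchl3 (4.77, next 5.76).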

How the results depend on the processing

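The 16 calls at 21 days became 6 (2 higher, 4 lower) with Spi-21 arrays 5 to 8 only and 22 (8 higher, 14 lower) with arrays 1 to 4 only. The 5 higher calls became 2 when only the 21-day groups were fitted and 3 with a glial marker covariate. With the beta-actin covariate 1 call was left at 21 days (1 higher, 0 lower) and 1 at 60 days (1 higher, 0 lower). The cause was not tested, and that covariate and the operation cannot be told apart. For the fits with a covariate, with a replicate block or with 1 array left out, the share of all genes called was not counted. The same holds for the fits of only the 21-day groups and for other scalings and probe set choices. These counts therefore do not set the members apart. The 16 calls at 60 days became 8, 1 of them lower, without ShamC-60 arrays 1 and 4, a fit with fewer arrays. No label sets these arrays apart. Array 1 was at an end of its group in 21 members, array 4 in 45 and array 5, which was kept, in 36. This was not counted over all genes. With Spi-21 arrays 5 to 8 only, the difference between the days was called in 3 members and the Spi-60 against Spi-21 difference in 8. Leaving out 1 array at a time gave 10 to 20 calls at 21 days (2 to 7 higher, 8 to 14 lower), 11 to 17 at 60 days (8 to 10 higher, 3 to 7 lower), and 0 to 0 for the 3 other comparisons. The replicate block gave 18 calls at 21 days (7 higher, 11 lower) and 18 at 60 days (10 higher, 8 lower); it ended the call of Ube2g1 at 60 days (-0.32, adjusted p = 0.0526). With the dimmest probe set per gene the direction turned for Ube2n (0.0548 at 21 days, 0.128 at 60 days), Ube4a at 21 days (0.283), Usp7 at 21 days (0.494) and Uba6 at 60 days (-0.527, called), and with the mean of the probe sets for Ube4a at 21 days (0.0736). Array weights, trended robust variances, median centring, quantile normalization and a filter on dim probe sets kept each count of calls within 1.5 times. Quantile normalization moved the median of all probe sets from 0.014 to 0.032 at 21 days. Dim members are limited by their closeness to background, and 17 of the 65 lie below the median signal.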

Other observations

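ShamC-60 array 4 was the highest or the lowest of its 5 arrays in 45 of the 65 members (highest in 19, lowest in 26). ShamC-60 array 5 was at an end of its group in 36 members and ShamC-21 array 3, of 6 arrays, in 35. An array of a smaller group is more often at an end by its position alone. End positions were not counted over all genes, so whether they are particular to the members is not known. Among the members called on neither day with all arrays, Otud4 (-0.43), Ube2c (0.33), Usp15 (-0.49), Usp39 (-0.55) and Usp47 (-0.39) were called with Spi-21 arrays 1 to 4 alone, and they were chosen here after those values were seen.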
